A study of Mus musculus with 2 samples.

Results

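The CXC chemokines described here are 10 genes of the 55536 annotated in the mouse: Cxcl1, Cxcl2, Cxcl3, Cxcl5, Cxcl9, Cxcl10, Cxcl11, Cxcl12, Cxcl14 and Cxcl16. They were taken by symbol, together with all 27 of their annotated transcripts. Within the family, the neutrophil-attracting group (Cxcl1, Cxcl2, Cxcl3 and Cxcl5) was compared with the interferon-linked group (Cxcl9, Cxcl10 and Cxcl11). The cells were bone-marrow-derived macrophages (BMDM), primary phagocytes grown from the marrow of C57BL/6J mice, with no genetic change named in the labels. All of them received lipid A, the part of endotoxin that Toll-like receptor 4 senses: 100 ng/ml for 12 h, then 12 h after it had been washed out, then 100 ng/ml again for 50 min. Ribosomal RNA was depleted from total RNA of the nucleoplasmic fraction, and 1 group of 2 libraries, labelled biological replicates 1 and 2, was sequenced. The RNA input was 500 ng for replicate 1 but 1 µg for replicate 2, and the effect of either cannot be told apart from that of the other. Both libraries carry 1 donor entry in the labels, which do not say whether animals or cultures differed, so each SD or p-value measures only the spread or counting error of these libraries, which may be technical. Cells without lipid A, cells stimulated once and whole-cell RNA were not analysed here, so the values are levels after this treatment and not responses to it.

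Chemokines are small secreted proteins that guide leukocytes by binding G-protein-coupled receptors, and the CXC family carries a single residue between its first pair of cysteines. Members with a glutamate-leucine-arginine (ELR) motif just before those cysteines bind Cxcr2 and draw neutrophils, and their genes are classical NF-kB targets of endotoxin-stimulated macrophages. Cxcl9, Cxcl10 and Cxcl11 lack the motif, bind Cxcr3 on activated T cells and NK cells, and are induced through interferon receptors and the interferon regulatory factors.

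The coding stretches around the first cysteines show what separates the groups. They come from the coding transcript numbered 201 of each gene in the GENCODE M21 annotation on mm10. Each is printed 5′ to 3′ on the coding strand, and capitals mark the 3 codons just before the first cysteine together with the cysteine, the residue between and the next cysteine.
Cxcl1 (chr5:90891475-90891510, plus strand): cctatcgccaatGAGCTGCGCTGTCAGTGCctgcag
Cxcl2 (chr5:90904121-90904156, plus strand): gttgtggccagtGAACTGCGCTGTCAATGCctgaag
Cxcl3 (chr5:90786347-90786382, plus strand): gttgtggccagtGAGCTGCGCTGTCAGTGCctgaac
Cxcl5 (chr5:90759706-90759741, plus strand): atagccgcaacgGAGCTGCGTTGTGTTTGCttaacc
Cxcl9 (chr5:92326836-92326871, minus strand): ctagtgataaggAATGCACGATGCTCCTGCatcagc
Cxcl10 (chr5:92348175-92348210, minus strand): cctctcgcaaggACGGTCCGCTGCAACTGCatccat
Cxcl11 (chr5:92361294-92361329, minus strand): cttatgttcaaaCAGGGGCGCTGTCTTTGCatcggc

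Codons for ELR stood before the cysteines in 4 of 4 neutrophil-attracting genes and in 0 of the other 6. Cxcl2 and Cxcl3 were identical at 89.7% of their 300 aligned coding bases, Cxcl1 and Cxcl2 at 78.8% and Cxcl1 and Cxcl3 at 75.7%. The authors' own posterior SD of the count was 0.13 and 0.18 reads in replicates 1 and 2 for Cxcl2, the same for Cxcl3, and 0 for Cxcl1. Whether such alike genes traded reads was not tested, and the count of Cxcl3 differed between the deposited tables, as given below. The groups also lie apart on chromosome 5 of mm10: Cxcl5, Cxcl3, Cxcl1 and Cxcl2 between 90759360 and 90905938 on the plus strand, and Cxcl9, Cxcl10 and Cxcl11 between 92321347 and 92365485 on the minus strand. Cxcl12 is on chromosome 6, Cxcl14 on chromosome 13 and Cxcl16 on chromosome 11.

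Annotated genes received 20612078 counts in replicate 1 and 22772081 in replicate 2. The limit for a gene with a count of 0 is 3 counts, which is 0.146 CPM (depth-scaled counts) in replicate 1 and 0.132 CPM in replicate 2, counting error only. All 10 macrophage markers lay above the median protein-coding gene and together reached 2258 and 2280 TPM (a level per effective length, scaled to the same total in each library). Behind these near-equal sums, single markers differed between replicates 1 and 2 in both directions. Fcgr1 had 47.6 and 117 TPM and Cd68 106 and 177, but Cd14 had 254 and 160 and Csf1r 246 and 193. Markers of other cells were low: the summed level in replicates 1 and 2 was 1.21 and 1.72 TPM for 7 neutrophil markers (Ly6g at 0 in both), 0.20 and 0.08 TPM for 6 fibroblast and stromal markers, and 0 and 0.01 TPM for 4 epithelial markers. The 4 endothelial markers summed to 14.7 and 20.0 TPM, nearly all of it Vwf. In bulk RNA, fewer cells of a type and less RNA per cell cannot be told apart.

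Among the neutrophil-attracting genes, Cxcl2 was by far the highest and Cxcl5 was at the detection limit. Cxcl2, a neutrophil attractant also known as MIP-2, had 581 TPM in replicate 1 and 465 in replicate 2, from 20870 and 18008 counts. Its mean was 523 ± 82.1 TPM (SD, n = 2), above 99.7% and 99.6% of the 12140 protein-coding genes that reached 10 counts over both libraries, whose median level was 3.55 and 3.58 TPM. Cxcl1, known as KC and the close partner of Cxcl2 at Cxcr2, had 73.5 and 48.8 TPM from 2551 and 1785 counts, a mean of 61.1 ± 17.5. Cxcl2 thus stood 7.91 and 9.53 times above Cxcl1 per length.

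Cxcl3, the nearest relative of Cxcl2 in coding sequence, had only 0.56 and 0.26 TPM from 33 and 17 counts, above 18.4% and 10.4% of protein-coding genes. Cxcl5, an attractant known mainly from epithelial cells, had 0 and 1 counts, within the limit that a count of 0 allows. The level of this group was therefore that of a single gene: Cxcl2 made up 88.7% and 90.5% of its summed TPM.

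Cxcl10 dominated the interferon-linked group in the same way. Cxcl10, or IP-10, had 336 TPM in replicate 1 and 678 in replicate 2, from 11400 and 23381 counts, with a mean of 507 ± 242 TPM (SD, n = 2). Cxcl11, or I-TAC, had 2.19 and 8.37 TPM from 113 and 442 counts. The annotation calls Cxcl11 a polymorphic pseudogene, a class for genes that code for protein in some strains only. Whether its RNA yields a working protein in the strain used here was not tested, so its values describe RNA alone. Cxcl9, or MIG, the member most tied to interferon gamma, had 0.87 and 0.69 TPM from 31 and 46 counts. The TPM and the counts of Cxcl9 thus order the libraries differently, because its short transcript, described below, weighed more in replicate 1. Cxcl10 made up 99.1% and 98.7% of the group's summed TPM.

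Of the remaining members only Cxcl16 was expressed at a high level. Cxcl16, a membrane-bound chemokine and scavenger receptor for oxidized lipoprotein, had 84.5 and 76.4 TPM from 5786 and 5514 counts, a mean of 80.5 ± 5.77 TPM (SD, n = 2). Cxcl12, the stromal ligand of Cxcr4, had 1 and 3 counts, and Cxcl14, a chemokine of epithelial tissue, had 2 and 2. Neither exceeded the limit that a count of 0 allows in any library. In all, 7 of the 10 members had 10 or more counts over both libraries, and Cxcl5, Cxcl12 and Cxcl14 did not.

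**Figure D1:**
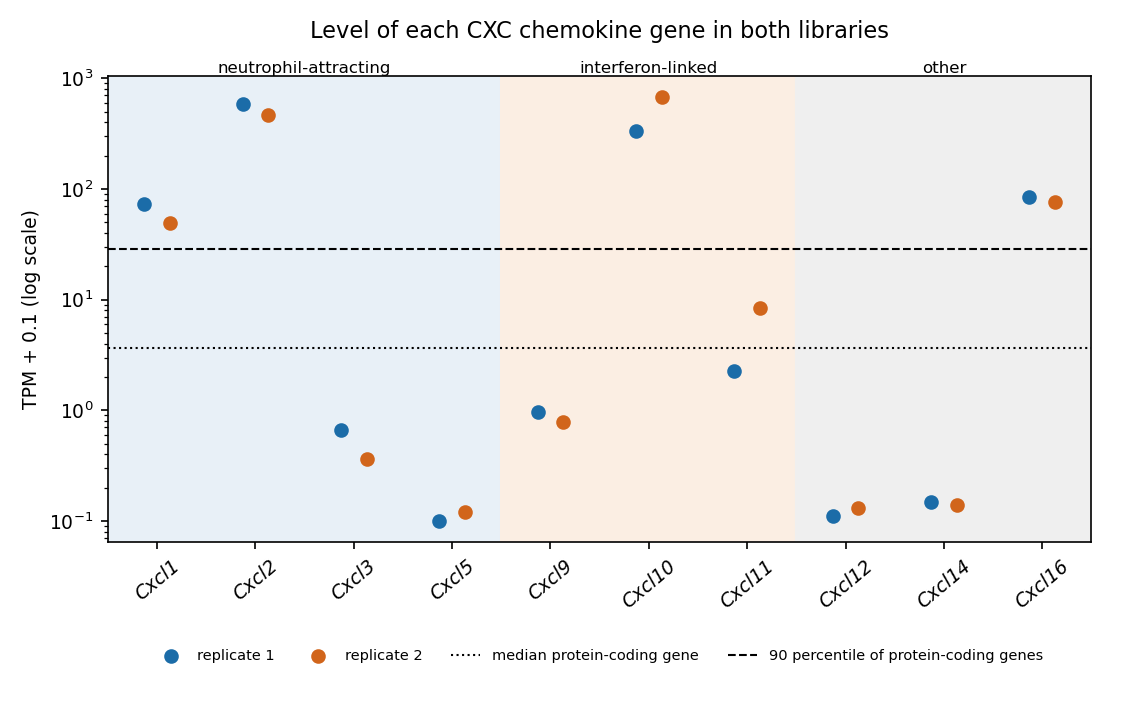
Level of the 10 CXC chemokine genes (TPM + 0.1, log axis) in replicate 1 and replicate 2, grouped by role, with lines at the median and the 90 percentile of the 12140 detected protein-coding genes. Cxcl2, Cxcl10, Cxcl16 and Cxcl1 lie above the upper line in both libraries, and Cxcl5, Cxcl12 and Cxcl14 lie at the bottom, at no more than 0.05 TPM.

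By mean TPM the order was Cxcl2, Cxcl10, Cxcl16, Cxcl1, Cxcl11, Cxcl9, Cxcl3, Cxcl14, Cxcl12 and Cxcl5. Cxcl2 and Cxcl10 did not differ beyond their spread, since the values of Cxcl10 in the 2 libraries lay on either side of those of Cxcl2. Every other pair of neighbours had ranges that did not overlap, apart from Cxcl12 and Cxcl5, although with 3 or fewer counts each the places of the last 3 genes carry no meaning. The same 4 genes, Cxcl1, Cxcl2, Cxcl10 and Cxcl16, exceeded the 90 percentile of the detected protein-coding genes in both libraries, which was 27.9 TPM in replicate 1 and 29.7 in replicate 2.

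Which group led depended on the library. In replicate 1 the neutrophil-attracting genes summed to 655 TPM and the interferon-linked genes to 339, a ratio of 1.93. In replicate 2 the sums were 514 TPM for the neutrophil-attracting genes and 688 for the interferon-linked genes, a ratio of 0.748. The neutrophil-attracting genes held 60.7% and 40.2% of the family's summed TPM in replicates 1 and 2, and the interferon-linked genes held 31.4% and 53.8%. The family as a whole differed less, at 1079 and 1278 TPM.

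The summed levels were set by Cxcl2 and Cxcl10, whose ratio was 1.73 in replicate 1 and 0.685 in replicate 2. A comparison that gives each gene the same weight gave another answer. The mean log2(TPM + 0.1) of the 4 neutrophil-attracting genes minus that of the 3 interferon-linked genes was -0.32 in replicate 1 and -1.56 in replicate 2, a mean of -0.94 ± 0.88 (SD, n = 2). Over members with 10 or more counts, which leaves out Cxcl5, it was 1.02, and the log2 ratio of the summed TPM was 0.27. It also moved with the pseudocount, to -0.20 with 1 and to -1.62 with 0.01. Neither group was therefore higher by more than the spread between libraries in a way that held across these measures. No test was made, since members are not replicates.

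**Figure D2:**
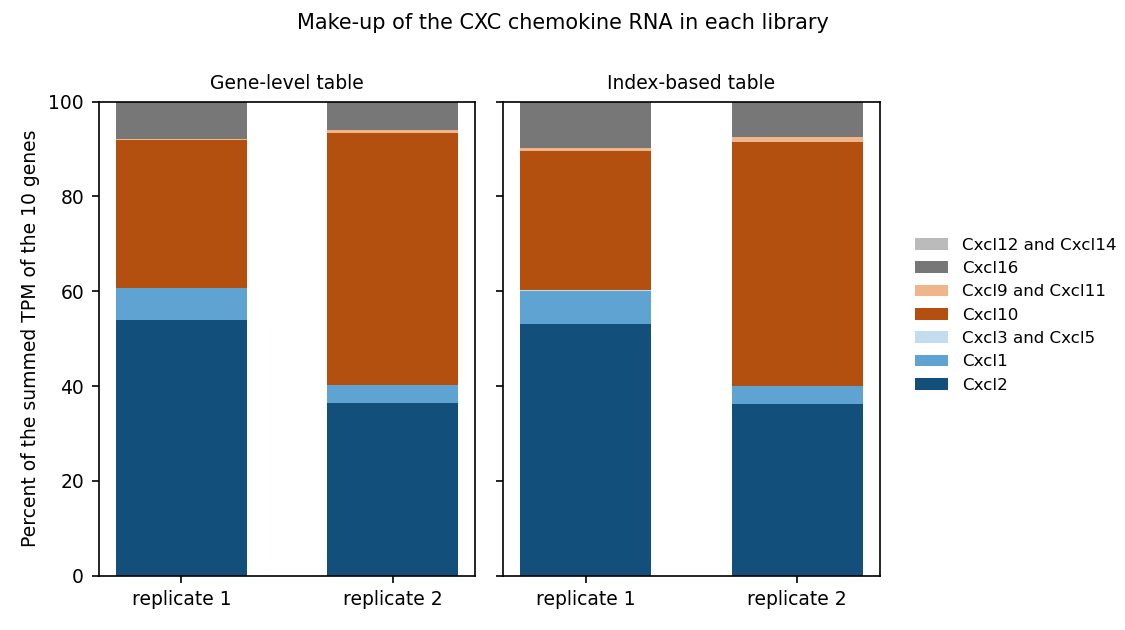
Percent of the summed TPM of the 10 genes held by each gene or pair of genes in replicates 1 and 2, in the gene-level table (left) and in the index-based transcript table (right). Neutrophil-attracting genes are blue and interferon-linked genes orange: in the gene-level table, blue takes 60.7% of replicate 1 and 40.2% of replicate 2, and the index-based bars show nearly the same division.

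A further deposited table, which assigned reads to transcripts through an index and is called index-based below, gave lower TPM but nearly the same proportions. In it Cxcl2 had 295 and 116 TPM in replicates 1 and 2, and Cxcl10 had 163 and 164. The ratio of the summed neutrophil-attracting to interferon-linked TPM was 2.02 and 0.761, close to the gene-level values. The groups' shares of the family were 60.3% and 40.02% for the neutrophil-attracting genes and 29.8% and 52.6% for the interferon-linked genes. Since TPM in this table was lowered more in replicate 2 than in replicate 1, it was used within a library only.

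The low members were the ones on which the tables differed. Cxcl5 had 86 and 14 index-based counts in replicates 1 and 2, against 0 and 1 in the gene-level table, and all of them were assigned to its coding transcript Cxcl5-201. Cxcl3 had 113 and 37 index-based counts, most of them assigned to an unspliced transcript. Cxcl9 had 95 and 92 index-based counts against 31 and 46, and Cxcl11 had 355 and 847 against 113 and 442. Index-based counts were also more numerous in all, at 34686158 and 30914630. With the index-based values, the difference of the mean log2 levels became 0.48 in replicate 1 and -1.15 in replicate 2. Whether Cxcl5 was expressed can thus not be settled from these tables.

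The next question was how far each gene differed between the libraries. Counts were compared with an exact binomial test against library sizes scaled by TMM, which covers counting error alone and compares these libraries, not conditions. A gene was called at a Benjamini-Hochberg adjusted p under 0.05, over all 22502 genes tested, with at least a 2-fold difference. All ratios are log2 of replicate 1 over replicate 2. Of the 10 members 1 was called, Cxcl11, beside 4.84% of all genes tested. It was higher in replicate 2, the direction of 3.32% of all genes, and 0 members were called higher in replicate 1, the direction of 1.52% of all genes. A single call among 10 members does not set the family apart from all genes.

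Cxcl11 had a log2 ratio of -1.89 (95% counting interval -2.21 to -1.59), or 3.71-fold higher in replicate 2, with an adjusted p of 7.45e-42 in the exact binomial test. It was also called by edgeR's exact test when a dispersion of 0.01 or 0.04 stood in for a spread between cultures, at an adjusted p of 0.00566 with the larger one. Cxcl10 fell just short of the 2-fold line: its log2 ratio was -0.96 (interval -0.997 to -0.932), or 1.95-fold higher in replicate 2. For Cxcl10 the edgeR exact test gave an adjusted p of 0.000245 with a dispersion of 0.01 and of 0.616 with 0.04. Cxcl9 had a log2 ratio of -0.49 (interval -1.20 to 0.19) and did not pass (adjusted p = 0.328, exact binomial test).

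The neutrophil-attracting genes lay on the other side of 0. Cxcl1 had a log2 ratio of 0.59 (interval 0.50 to 0.68) and Cxcl2 one of 0.28 (interval 0.26 to 0.31). Their adjusted p-values in the exact binomial test were 1.03e-38 for Cxcl1 and 2.44e-82 for Cxcl2, but neither reached 2-fold. Against an assumed spread, set in advance and not measured from these libraries, neither gene was called. The edgeR exact test with a dispersion of 0.01 gave adjusted p-values of 0.0809 for Cxcl1 and 0.605 for Cxcl2, and 0.04 also called neither. Cxcl3 had the largest ratio of this group, 1.01 (interval 0.14 to 1.97), on 33 and 17 counts, and missed the threshold at an adjusted p of 0.0581 in the exact binomial test. It was called when scaled by library totals (adjusted p = 0.0383, exact binomial test). Cxcl16 differed little, at 0.14 (interval 0.09 to 0.20, adjusted p = 1.68e-06 in the exact binomial test).

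**Figure D3:**
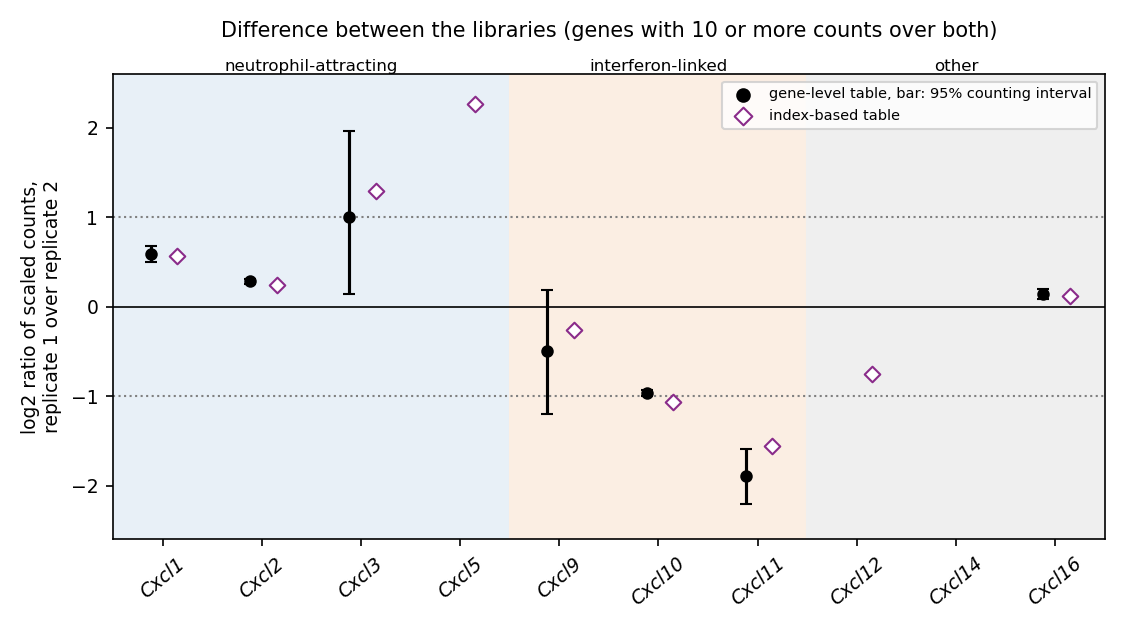
Log2 ratio of scaled counts, replicate 1 over replicate 2, for members with 10 or more counts over both libraries in the table named; black points are gene-level values with 95% counting intervals, diamonds are index-based values and dotted lines mark 2-fold. Cxcl1, Cxcl2 and Cxcl3 lie above 0, Cxcl9, Cxcl10 and Cxcl11 lie below 0, and only Cxcl11 lies past the line with its whole gene-level interval.

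The log2 ratio was above 0 in 3 of 3 neutrophil-attracting genes with 10 or more counts and below 0 in 3 of 3 interferon-linked genes. Over all 16140 genes with as many counts, it was above 0 in 8075 and below 0 in 8065, with a median of 0.00. The median was 0.59 for the neutrophil-attracting genes and -0.96 for the interferon-linked genes. With index-based counts the ratio was again above 0 for Cxcl1, Cxcl2 and Cxcl3 and below 0 for Cxcl9, Cxcl10 and Cxcl11. There Cxcl10 (-1.06), Cxcl3 (1.29) and Cxcl5 (2.27) were called beside Cxcl11 (-1.56).

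Genes on the opposite strand overlap 3 of the members. Art3 lies across Cxcl10, sharing 133 exon bases with it, and across Cxcl11 with no shared exon base, and it had 202 and 416 counts in replicates 1 and 2. Gm2673, a processed pseudogene that shares 1582 exon bases with Cxcl11, had 0 counts in both. Zmynd15 shares 552 exon bases with Cxcl16 and had 414 and 749 counts. The sources used here do not say whether counting used strand, so reads of these pairs cannot be told apart in the shared bases. For Cxcl10, all counts of Art3 came to far fewer than its own 11400 and 23381. For Cxcl11 they did not, since its own counts were 113 and 442. Whether reads of Art3 were counted for Cxcl11 was not tested.

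How mature the chemokine RNA was in this nuclear fraction was only estimated, from the transcript tables, where shared reads are divided among overlapping transcripts. Reads over splice junctions or introns were not counted. For Cxcl1, Cxcl2, Cxcl3 and Cxcl10 the annotation holds a single-exon transcript that covers at least 90% of the gene's span, introns included, and a share of TPM in it is a share of unspliced RNA as annotated. For Cxcl1 this transcript, Cxcl1-202, took 33.9% of the gene's TPM in replicate 1 and 33.4% in replicate 2, and index-based values were 33.66% and 33.96%. For Cxcl2, Cxcl2-203 took 27.9% and 30.4%, with 29.5% and 30.4% in the index-based table. For Cxcl10, Cxcl10-204 took 16.1% and 16.9%, with 18.6% in both libraries in the index-based table. TPM shares are per length, and alignment-based counts gave another picture. Cxcl1-202 had 1367 and 937 counts against 1184 and 848 for the spliced Cxcl1-201. Cxcl2-203 had 9950 and 9053 against 9443 and 7514 for Cxcl2-201. Cxcl10-204, at 3608 and 8011, stayed below Cxcl10-201, at 7633 and 14519.

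Cxcl10 thus had the lowest share in its single-exon transcript among the 3 well-measured genes, in both libraries and both tables. The comparison set was the 28 protein-coding genes that have such a transcript and reached 100 counts in each library, these 3 among them. They had a median of 43.7% and 47.8% in the alignment-based table, with lower quartiles of 23.7% and 27.3%. The upper quartiles were 95.5% and 96.7%, so for part of this set the single-exon transcript is the main form. A low place in the set therefore does not show unusually complete splicing. Cxcl10 lay under the lower quartile in both libraries, and Cxcl1 and Cxcl2 lay between the lower quartile and the median. Cxcl3 had 39.3% and 42.3% in the alignment-based table and 69.6% and 79.5% in the index-based one, and its few counts give it no firm place. The shares of the single-exon transcripts of Cxcl1, Cxcl2 and Cxcl10 were nearly equal in both libraries, although the levels of these genes differed. This did not hold for all retained-intron forms together. In replicates 1 and 2 they took 21.1% and 29.3% of Cxcl10 and 33.9% and 33.4% of Cxcl1 in the alignment-based table. Index-based values were 22.7% and 34.4% for Cxcl10 and 33.66% and 33.96% for Cxcl1, so Cxcl10 was not the lowest in replicate 2 there.

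**Figure D4:**
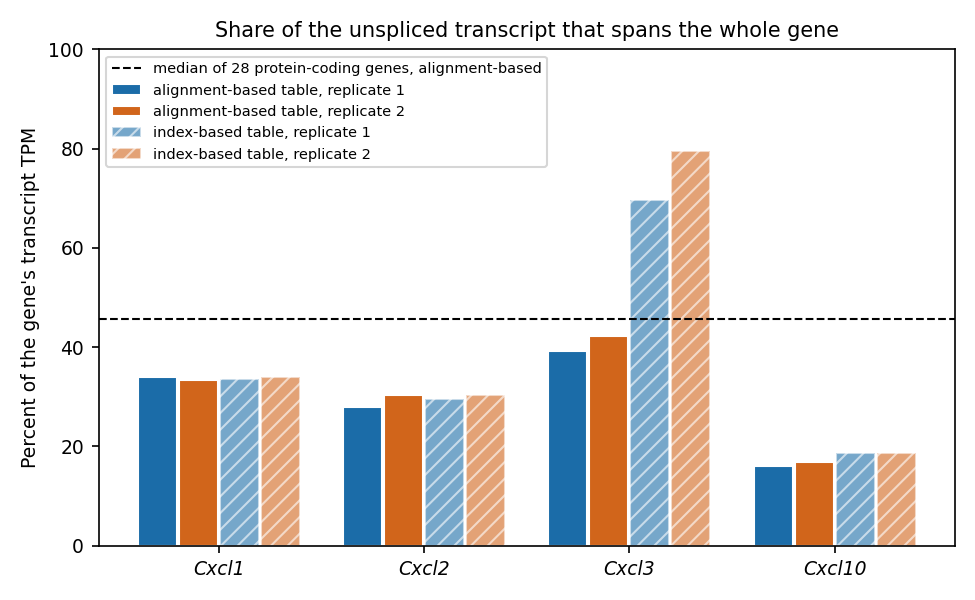
Percent of each gene's transcript TPM in the annotated unspliced transcript that spans the whole gene, for replicates 1 and 2 in the alignment-based (solid) and index-based (hatched) tables. The bars of Cxcl10 are the lowest, at 16.1% to 18.6%, those of Cxcl1 and Cxcl2 lie at 27.9% to 33.96%, and the tables part only for Cxcl3, which had 33 and 17 gene-level counts; the dashed line is the mean over the libraries of the median of 28 genes.

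The spliced coding transcript took the largest share of the TPM, though not always of the counts, of each member with 100 or more counts, here in the alignment-based table. Cxcl1-201 took 66.1% and 66.6% of the TPM of Cxcl1 in replicates 1 and 2, and Cxcl2-201 took 55.0% and 51.4% of that of Cxcl2. Cxcl10-201 took 78.2% and 69.2% of Cxcl10. Cxcl11-201, annotated as coding within the polymorphic pseudogene, took 91.3% and 93.1%, and Cxcl16-201 took 67.7% and 66.6%.

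Other forms took smaller shares. Cxcl2-204, a retained-intron fragment of 397 bases, took 13.9% and 14.6% of the TPM of Cxcl2, from only 485 and 486 of its 20870 and 18008 counts. Cxcl10-203, a retained-intron form of 344 bases, took 5.02% in replicate 1 and 12.4% in replicate 2, and 4.10% and 15.8% in the index-based table. Among the 4 transcripts of Cxcl10 its share differed most in proportion between the libraries. The alignment-based shares rest on only 72 and 453 of the gene's 11400 and 23381 counts, since TPM weighs short transcripts up. In Cxcl16 the nonsense-mediated-decay form Cxcl16-202 took 20.9% and 12.7% and the retained-intron form Cxcl16-203 took 11.5% and 20.6%. The index-based table gave 10.1% and 9.85% for Cxcl16-202 and 30.4% and 39.6% for Cxcl16-203, so the division of Cxcl16 depended on the table. For Cxcl9 the retained-intron form Cxcl9-202, of 370 bases, took 63.6% and 28.99% of TPM from only 2.84 and 1.27 counts. No test was made on these shares, since each is 1 value per library.

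The promoters of Cxcl1, Cxcl2 and Cxcl3 and of Cxcl9 and Cxcl10, the matched members of the compared groups, show which sequences they share. They are RefSeq windows on GRCm38.p6, from 250 bases before to 50 after the annotated start, and 7 of the 10 members matched one, all but Cxcl5, Cxcl11 and Cxcl16. Both strands were searched for TATAAA, GAAANNGAA (the core of sites bound by interferon regulatory factors), TTCNNNGAA (a STAT site), TGANTCA (an AP-1 site) and the degenerate NF-kB consensus. Capitals mark matches to the NF-kB consensus and to GAAANNGAA, overlapping matches being merged. The stretches for Cxcl1, Cxcl2 and Cxcl3 run from 130 to 31 bases before the start, those for Cxcl9 and Cxcl10 from 250 to 31, each 5′ to 3′ on the gene's strand.
Cxcl1 (chr5:90891115-90891214, plus strand): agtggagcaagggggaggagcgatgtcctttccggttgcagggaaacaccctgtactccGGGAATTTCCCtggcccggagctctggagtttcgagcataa
Cxcl2 (chr5:90903769-90903868, plus strand): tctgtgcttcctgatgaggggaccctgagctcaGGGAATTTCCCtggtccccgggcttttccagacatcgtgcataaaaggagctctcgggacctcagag
Cxcl3 (chr5:90785971-90786070, plus strand): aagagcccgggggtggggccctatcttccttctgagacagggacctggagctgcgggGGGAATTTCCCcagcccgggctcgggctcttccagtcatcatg
Cxcl9 (chr5:92328110-92328329, minus strand): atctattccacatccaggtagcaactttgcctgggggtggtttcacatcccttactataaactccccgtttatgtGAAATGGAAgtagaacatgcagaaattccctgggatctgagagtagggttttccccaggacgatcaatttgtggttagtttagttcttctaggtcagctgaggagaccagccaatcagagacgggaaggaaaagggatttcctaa
Cxcl10 (chr5:92348920-92349139, minus strand): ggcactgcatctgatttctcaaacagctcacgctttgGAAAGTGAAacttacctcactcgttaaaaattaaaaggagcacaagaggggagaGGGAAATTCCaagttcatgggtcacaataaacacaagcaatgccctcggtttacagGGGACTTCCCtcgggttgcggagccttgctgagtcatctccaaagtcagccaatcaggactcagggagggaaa

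Cxcl1, Cxcl2 and Cxcl3 carried the same NF-kB block, read on both strands as 2 overlapping matches, at 71 to 61, 97 to 87 and 73 to 63 bases before their starts. Cxcl10 carried 2 separate matches, at 159 to 150 and 103 to 94 bases before its start, and GAAANNGAA at 213 to 205. Cxcl9 carried GAAANNGAA at 175 to 167 and no match to the NF-kB consensus. In all, 4 of 7 members held the NF-kB consensus, which 4.51% of 32851 RefSeq promoters of the same length held, and 3 of 7 (Cxcl9, Cxcl10 and Cxcl14) held GAAANNGAA, against 8.56%. TGANTCA occurred in Cxcl9 and Cxcl10 (7.81% of promoters), TATAAA in Cxcl3 and Cxcl9 (13.6%) and TTCNNNGAA in Cxcl14 (8.30%). Cxcl3 had the block of Cxcl1 and Cxcl2 but 0.56 and 0.26 TPM, so the block stood in genes of very different level. A match is a description of letters and not a binding site.

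The groups also differed in the 3′ untranslated region (UTR), where AU-rich pentamers are known to make cytokine mRNAs short-lived through binding of Zfp36. Cxcl2 had 11 ATTTA pentamers in 734 bases of 3′ UTR, 14.99 per kb, a density reached by 0.214% of 10755 other detected protein-coding genes, each taken by its coding transcript 201. The densest 30 bases of the Cxcl2 3′ UTR, with the pentamers in capitals, hold 5 of them.
Cxcl2 (chr5:90905327-90905356, plus strand): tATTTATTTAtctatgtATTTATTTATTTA

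Cxcl1 had 7 pentamers, 11.8 per kb, Cxcl3 had 5, 7.75 per kb, and Cxcl5 had 5, 4.50 per kb. Among the interferon-linked genes, Cxcl10 had 2 (2.74 per kb), Cxcl9 had 3 (1.22 per kb) and Cxcl11 had 1 (0.82 per kb). The median of the other protein-coding genes was 1 pentamer, or 1.30 per kb, and 32.4% of them had none. Every neutrophil-attracting gene had a higher density than every interferon-linked gene, and Cxcl16 (1.41), Cxcl12 (0.77) and Cxcl14 (none) lay near or below the median. In these libraries the density did not order the levels: Cxcl5 and Cxcl3 were dense in pentamers and low, and Cxcl10 was high.

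**Figure D5:**
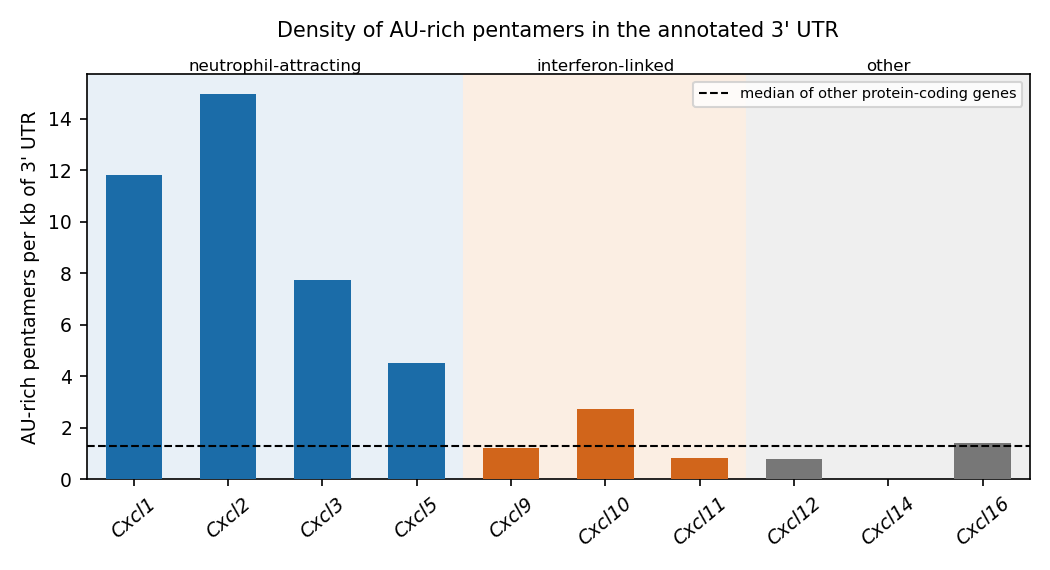
ATTTA pentamers per kb of annotated 3′ UTR in coding transcript 201 of each member, by role, with the median of other protein-coding genes dashed. The neutrophil-attracting genes reach 4.50 to 14.99 per kb, and the interferon-linked genes 0.82 to 2.74.

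Receptors for these chemokines were scarce in the same RNA. Of 8 CXC receptor genes 3 had 10 or more counts. None of the 6 tested was called between the libraries, beside 4.84% of all genes tested. Cxcr4, the receptor of Cxcl12, had 3.65 and 2.16 TPM in replicates 1 and 2, and Cxcr6, the receptor of Cxcl16, had 0.79 and 1.02 TPM. The receptors of the compared groups, named for that role, stood at 1 and 2 counts for Cxcr2 and 37 and 38 counts for Cxcr3. For Cxcr2 the index-based table assigned 265 and 171 counts, so its detection depended on the table. Among 5 other CXC ligands, Pf4 (platelet factor 4) had 18.04 and 17.83 TPM and Ppbp 0.17 and 0.07 TPM. None of the 3 ligands tested was called, beside the same 4.84%.

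Most factors that act on the chemokine proteins or their mRNA were detected. None was called, beside 4.84% of all genes tested, and so few genes do not set these lists apart. Of 8 genes for processing of the proteins, 7 had 10 or more counts, led by the cathepsin Ctsl, at 56.2 and 80.6 TPM in replicates 1 and 2, and Adam17, a protease that sheds Cxcl16 from the membrane, at 64.1 and 69.4. The other, Pcsk5, had 0 counts in both libraries. In the index-based table it had 147 and 48.9 counts and was called there, at a log2 ratio of 1.27. All 8 decay factors had 10 or more counts, led by Zfp36, which binds AU-rich elements, at 257 and 280 TPM and Hnrnpd (AUF1) at 36.9 and 28.9.

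Of 12 regulators on the interferon side, all with 10 or more counts, 0 were called higher in replicate 1, beside 1.52% of all genes tested, and 2 higher in replicate 2, beside 3.32%. The 2 were Irf7 and Ifnb1, higher in the same library as Cxcl11. Irf7, the interferon-inducible master regulator of type I interferon genes, had 211 TPM in replicate 1 and 467 in replicate 2, a log2 ratio of -1.14. Ifnb1, which encodes interferon beta, had 8.16 and 16.6 TPM, a log2 ratio of -1.07 (adjusted p = 4.04e-13, exact binomial test). Irf1 had 268 and 399 TPM and was not called. The ratio was above 0 in 3 and below 0 in 9 of the 12, with a median of -0.28, against 0.00 over all genes with 10 or more counts. Neither Irf7 nor Ifnb1 was called with a dispersion of 0.04, where the edgeR exact test gave adjusted p-values of 0.322 for Irf7 and 0.525 for Ifnb1.

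On the NF-kB side, 1 of 10 genes was called higher in replicate 1, beside 1.52% of all genes tested, and 0 higher in replicate 2, beside 3.32%, and the median log2 ratio was -0.08. Fos, the AP-1 subunit, had 36.7 TPM in replicate 1 and 18.4 in replicate 2, a log2 ratio of 1.05 (adjusted p = 5.41e-67, exact binomial test). Fos was not called with a dispersion of 0.04 (adjusted p = 0.462, edgeR exact test), nor in the index-based table, where its log2 ratio was 0.97. Nfkbia, the inhibitor that NF-kB itself induces, had 290 and 399 TPM, and Nfkbiz, a nuclear co-activator of NF-kB targets, had 265 and 233. Neither of those was called. The part of these regulators in the opposite ratios of the chemokine groups was not tested.

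Among 7845 protein-coding genes that reached 100 counts in each library, the genes nearest to each leading chemokine were found by Euclidean distance on log2(TPM + 0.1) over the 2 libraries. Nearest to Cxcl2 were Gm49369 (668 and 525 TPM in replicates 1 and 2), Sqstm1 (477 and 460) and Tmsb4x (655 and 553), at distances of 0.27, 0.28 and 0.30. Nearest to Cxcl10 were the mitochondrially encoded mt-Co3 (315 and 709 TPM), Lgmn (381 and 588) and Ctsz (385 and 537.5), at distances of 0.11, 0.28 and 0.39. With only 2 libraries, nearness is a likeness of level. The mt-Co3 values show mitochondrially encoded RNA in libraries labelled nucleoplasmic, at levels that differed between them. The purity of the fraction was not tested.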

How the data were processed

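Per the labels, nucleoplasmic RNA of macrophages was sequenced in 2 libraries of 1 group. Per the file headers, all tables use mm10 and GENCODE M21, and replicates were kept separate. Names of the aligner and quantifiers were not given in the sources used here. Expected counts (reads per gene, shared reads divided among transcripts), TPM and FPKM of the gene-level table were made by the authors from alignments to the transcriptome. They also deposited an alignment-based transcript table, with the percent of a gene's TPM in each transcript, and an index-based transcript table made from the reads. TPM, as deposited by the authors, is scaled over all entries, so abundant small RNAs lower it for other genes. FPKM from the authors served as an alternative.

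Rows naming no annotated gene (26345 rows, 0.144% and 0.0810% of counts) were left out. Expected counts were rounded, and index-based transcripts were summed by gene. With 1 library against 1, no fitted model has residual degrees of freedom, so counts were compared by a two-sided exact binomial test on TMM library sizes (edgeR 4.0.16, R 4.3.3), with 0.5 added for ratios, Benjamini-Hochberg adjusted over all genes with a count. Alternatives used library totals, DESeq2 1.42.0 size factors, count minimums, an edgeR exact test with a dispersion set in advance, other pseudocounts (0.1 in the main values) and the index-based table. The exact binomial test was tried on counts simulated with counting error only, and the edgeR exact test was not tried on simulated data. Intervals (exact Clopper-Pearson, 95%) and limits cover counting error only.

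The members and lists were chosen with earlier results of these data known. Named were all members, the 2 highest genes of each list, list genes that were called, and the 3 genes nearest to Cxcl2 and Cxcl10; the receptors Cxcr2 and Cxcr3 were added after their values were seen. Coding bases stand in for the protein sequences the design foresaw. The unspliced transcripts and pentamers were defined after the data were seen. Sequences were read from mm10 with GENCODE M21 and from RefSeq promoters on GRCm38.p6, with Biopython 1.88.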

Additional observations from a re-analysis of the deposited data

How the results depend on the processing

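The difference of mean log2 levels, neutrophil-attracting minus interferon-linked, was -0.94. It changed sign over members with 10 or more counts (1.02), with the median over members (0.30) and in 2 alternatives chosen after seeing the data, the log2 ratio of summed TPM (0.27) and Cxcl2 minus Cxcl10 (0.12). Only the first of these drops a gene for low counts, Cxcl5. As a mean over the libraries, the difference kept its sign at -0.20 with a pseudocount of 1, -1.62 with 0.01, -0.33 in the index-based table and -1.09 with FPKM. Within the index-based table, however, it was 0.48 in replicate 1 and -1.15 in replicate 2. With a single library of the gene-level table the difference ranged from -1.56 to -0.32. Genes called numbered 1090, against 678 with 10 or more counts in both libraries, 686 and 166 with a dispersion of 0.01 and 0.04, and 2304 in the index-based table. Of the calls, 518 were shared with the index-based table in the same direction, 47.5% of the gene-level and 22.5% of the index-based calls. Members called numbered 1, against 2 with library totals and 2 with 10 or more counts in both libraries (each adding Cxcl3), and 4 in the index-based table. With a set dispersion or the count minimum, the members' ratios repeat the main ones by construction. Their direction could not change there, only their adjusted p. Of 57 alternative values of the members' ratios, these among them, 51 kept direction and side of the threshold and 4 passed it anew (Cxcl3 and Cxcl10). The remaining 2 turned sign, both index-based: Cxcl5 at 2.27 and Cxcl14 at -0.79. Both genes had 3 or fewer gene-level counts, so no gene-level fold is given, and the cause was not tested. No paired analysis was possible because the study holds 1 group. A ratio between libraries has no value without one of them. Depth limits Cxcl3, Cxcl5, Cxcl9, Cxcl12 and Cxcl14, whose intervals are wide or which lie at the limit that a count of 0 allows.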
